A study of Ginkgo biloba with 2 samples.

Results

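Many of the best studied plant miRNAs belong to families shared by most seed plants, and the 5 names described here do not. They carry names of families first described in conifers, in a moss or in a spikemoss: pta-miR1314 from loblolly pine (Pinus taeda), pab-miR3711 from Norway spruce (Picea abies), ppt-miR894 and ppt-miR1030a from the moss Physcomitrella patens, and smo-miR1083 from the spikemoss Selaginella moellendorffii. They were chosen by name from the count table, which lists 467 miRNA names, 252 of them with miRBase names of other plants. The choice was made with the counts and ratios of these libraries already known, so the counts and ratios below are a description and no test was made on them. The rule has no threshold. ppt-miR1030h, a second name of the miR1030 family, is in the table but not among the 5, and its values are given beside those of ppt-miR1030a.

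A plant miRNA is cut from a hairpin precursor by a Dicer-like enzyme and loaded into an Argonaute protein. It pairs along most of its length with a messenger RNA, which is then cleaved or kept from translation. Target sites can therefore be predicted from sequence. For many families named in only a few lineages, the role in the plant is less well established than for the widely shared families.

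Small RNA of Ginkgo biloba, a gymnosperm tree, was sequenced from normal green leaves (1 library) and from the yellow leaves of a gold-coloured mutant (1 library), with no further treatment given. Per the labels, leaves of both kinds came from an adult tree grown outdoors. The mutant leaves are described as yellow in one label and as striped in yellow and green in another, so the yellow library may hold green tissue. The tissue is labelled leaf for both, while the RNA extraction is described for cambium, and no miRNA marks leaf tissue alone, so the tissue was not checked against markers. Over all names the green library totalled 2084893 reads, against 2793966 for the yellow one. Neither leaf type was replicated, so no p-value was computed, and every interval is an exact 95% interval of counting error that compares these 2 libraries only.

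Levels are given as CPM, the reads of a name per 1000000 reads of the library's column total. ppt-miR894 was the most-read of the 5 in green leaves, with 8878 green and 1427 yellow reads, or 4258 CPM (4170 to 4348) and 511 CPM (485 to 538). smo-miR1083 had 4152 green and 2344 yellow reads, or 1991 and 839 CPM. pta-miR1314 had 1704 and 1935 reads, or 817 and 693 CPM. These 3 names were well covered in both libraries, and their ranks by reads among all names ran from 32 to 65 in green and from 60 to 76 in yellow leaves.

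The other 2 names were rare. pab-miR3711 had 92 green and 20 yellow reads, or 44.1 CPM (35.6 to 54.1) and 7.16 CPM (4.37 to 11.1). ppt-miR1030a had 48 and 17 reads, or 23.0 CPM (17.0 to 30.5) and 6.09 CPM (3.54 to 9.74). All 5 names were read in both libraries, above the limit that a count of 0 allows (3 counts, which is 1.44 CPM for the green library and 1.07 CPM for the yellow one). ppt-miR1030h had 12 and 6 reads.

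**Figure D1:**
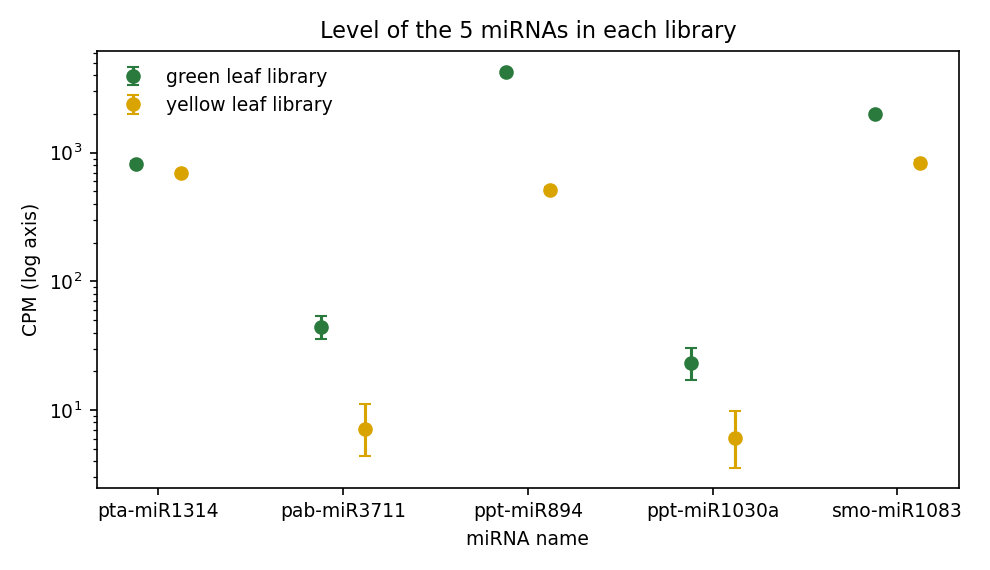
Level of the 5 miRNAs in CPM on a log axis, in the green leaf library (green points) and the yellow leaf library (yellow points), with exact 95% counting intervals as bars that are hidden by the points where reads are many. ppt-miR894 fell from 4258 CPM in green leaves to 511 CPM in yellow ones, while the 2 points of pta-miR1314, at 817 and 693 CPM, lie close together.

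The order of the 5 names changed between the libraries. In green leaves ppt-miR894 was read 2.14 times as often as smo-miR1083 (interval 2.06 to 2.22), which was read 2.44 times as often as pta-miR1314 (2.30 to 2.58). In yellow leaves smo-miR1083 came first, at 1.21 times the reads of pta-miR1314 (1.14 to 1.29), and ppt-miR894 came after both, with pta-miR1314 at 1.36 times its reads (1.27 to 1.45). pab-miR3711 and then ppt-miR1030a came last in both libraries. Those 2 neighbours differed beyond counting error in green leaves, at 1.92 times (1.34 to 2.78), and not in yellow leaves, at 1.18 times (0.585 to 2.39). These orders are of reads, and small RNA library preparation can recover different miRNAs unequally.

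Together the 5 names held 0.713% (0.702 to 0.725) of the green reads and 0.206% (0.200 to 0.211) of the yellow reads, or 14874 and 5743 reads. Among the miRBase names alone the shares were 2.04% and 0.648%. A read may count under several names, so all of these are shares of summed counts and need not be shares of separate reads. ppt-miR894 made up 59.7% of the reads of the 5 names in green leaves and 24.9% in yellow leaves. pta-miR1314 made up 11.5% in green and 33.7% in yellow leaves, and smo-miR1083 27.9% and 40.8%. pab-miR3711 and ppt-miR1030a each stayed below 1% of the reads of the 5 names in both libraries.

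The study set yellow mutant leaves against green ones. Scaled to the column total, 4 of the 5 names were at least 2-fold lower in the yellow library and none was higher. ppt-miR894, named from moss, was 8.34-fold lower (7.88 to 8.82), and pab-miR3711, named from spruce, was 6.16-fold lower (3.77 to 10.6). ppt-miR1030a was 3.78-fold lower (2.14 to 7.02) and smo-miR1083, named from spikemoss, 2.37-fold lower (2.26 to 2.50). pta-miR1314, named from pine, did not pass the rule, with a ratio of yellow over green of 0.847 (0.794 to 0.905).

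A name was called by size: 20 or more reads over both libraries, a difference of 2-fold or more, and a counting interval without 1. Of all 306 names with at least 20 reads, 24.8% were lower and 12.1% higher by this rule, scaled to the column total. That excess of lower names depends on the scaling: with TMM, a trimmed mean over names, 50 were lower and 64 higher. The members were chosen with these ratios known, so nothing is read from 4 of 5 against that background. The median log2 ratio was -1.92 over the 5 names, -0.43 over the 306 names and -0.48 over the 142 miRBase names among them. ppt-miR1030h, with 18 reads in all, was under the read minimum, and its ratio of 0.373 had an interval of 0.115 to 1.07.

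**Figure D2:**
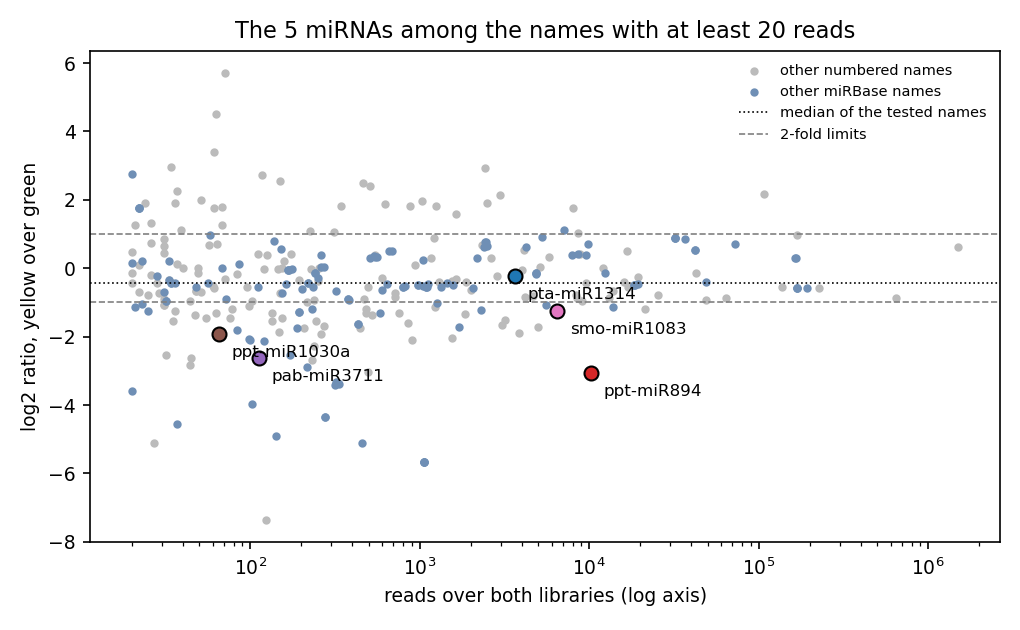
Log2 ratio of yellow over green against reads over both libraries (log axis) for 304 of the 306 names with at least 20 reads; the other 2 had 0 reads in 1 library and are not drawn. Dashed lines mark 2-fold and the dotted line the median of -0.43. ppt-miR894 lies below every other name of its depth or more. Most miRBase names of that depth are variants of the miR166 and miR396 families and may share reads.

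ppt-miR894 stood out only among names of its depth. 17 of the 306 names had a lower ratio, 15 of them miRBase names. Names of the miR408, miR397 and miR858 families were among these, such as ppt-miR408b, pab-miR397 and ath-miR858a with log2 ratios of -5.68, -5.11 and -4.36. So were gma-miR4995, rgl-miR5139 and cpa-miR8155, with log2 ratios of -3.37, -3.38 and -3.43 against -3.06 for ppt-miR894. The latter names had 331, 334 and 316 reads over both libraries and may count some of the same reads, which was not tested. Of the 39 names with at least as many reads as ppt-miR894, itself included, none had a lower ratio. The other miRBase names among them were of the miR159, miR166, miR319 and miR396 families only. Some have almost equal counts, such as 167792 reads for cpa-miR166e and 167793 for zma-miR166h-3p, so they may not be separate comparisons. ppt-miR894 lost 3748 CPM between the green and the yellow library, and 9 of the 306 names lost more. For smo-miR1083, 1 of the 52 names with at least its reads had a lower ratio. For pab-miR3711 and ppt-miR1030a, 17 of 212 and 27 of 232 names with at least their reads had a lower ratio. pta-miR1314 was near the middle, with 176 of the 306 names at a lower ratio. Variants of a family were counted as separate names here, and whether they hold the same reads was not tested.

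The scaling of the libraries mattered for 2 of the 5 names. The table's most-read miRNA is novel_1, a name with only a number from the authors. Relative to the column total, 4 other scalings moved every log2 ratio up by a common 0.14 to 0.47. ppt-miR894 was lower under each of the 5 scalings, by 6.03-fold to 8.34-fold. pab-miR3711 was lower by 4.46-fold to 6.16-fold and ppt-miR1030a by 2.74-fold to 3.78-fold, also under each. The interval of ppt-miR1030a left out 1 under each scaling, but under the 4 other scalings it reached past the 2-fold limit, to a ratio of 0.647 with TMM. smo-miR1083 stayed below 1 but passed the 2-fold limit under 2 of the 5, with a ratio of 0.583 under TMM scaling, a trimmed mean over names. pta-miR1314 changed direction, from 0.847 by the column total to 1.17 (1.10 to 1.25) under TMM, so its raw counts of 1704 and 1935 show no direction that holds across scalings.

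**Figure D3:**
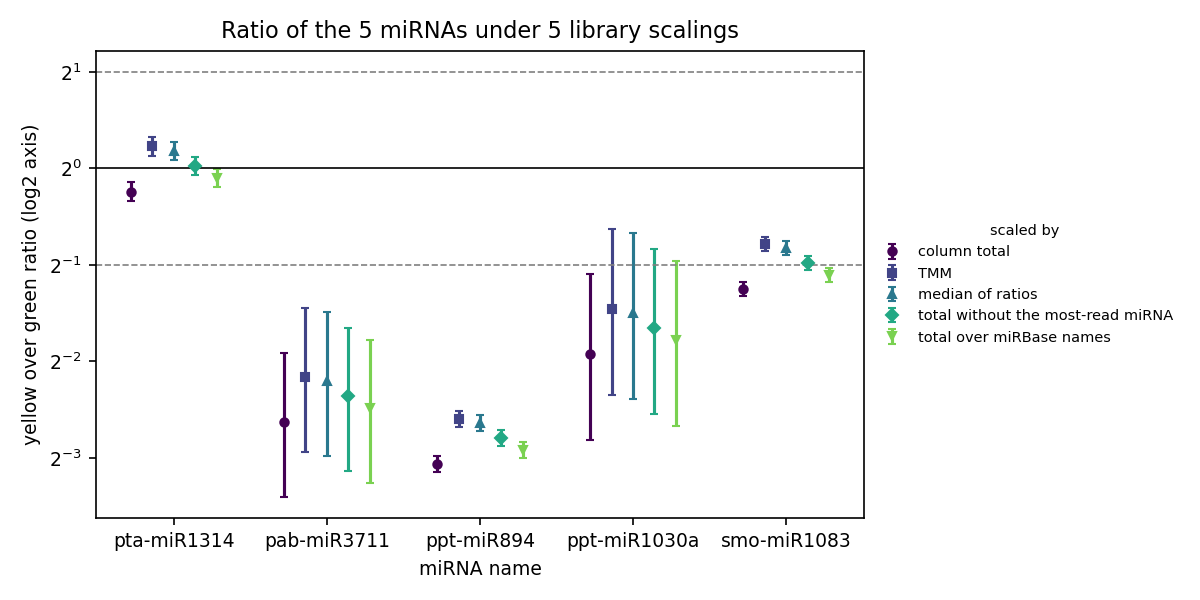
Ratio of yellow over green (log2 axis) of the 5 miRNAs under 5 library scalings, with exact 95% counting intervals; the solid line marks a ratio of 1 and the dashed lines 2-fold in either direction. The points of ppt-miR894, pab-miR3711 and ppt-miR1030a lie below the lower dashed line under each scaling, those of smo-miR1083 lie around it and those of pta-miR1314 around 1. The interval of ppt-miR1030a crosses that line under the 4 other scalings.

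Differences among the 5 names do not depend on the scaling, because it cancels when the ratio of one name is divided by that of another. Over the 10 pairs, 7 had an interval that left out 1. The ratio of pta-miR1314 was above that of each other name, by 7.06 times for ppt-miR894 (6.48 to 7.71), 5.22 times for pab-miR3711 (3.18 to 8.98), 3.21 times for ppt-miR1030a (1.80 to 5.97) and 2.01 times for smo-miR1083 (1.85 to 2.19). The 2 conifer names thus differed beyond counting error. The ratio of ppt-miR1030a was 2.20 times that of ppt-miR894 (1.18 to 3.91), so the 2 moss names also differed beyond counting error.

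The ratio of smo-miR1083 was 3.51 times that of ppt-miR894 (3.26 to 3.79) and 2.60 times that of pab-miR3711 (1.58 to 4.46). The 3 remaining pairs did not differ beyond counting error. The ratio of pab-miR3711 was 1.35 times that of ppt-miR894 (0.787 to 2.22). That of ppt-miR1030a was 1.63 times that of pab-miR3711 (0.726 to 3.61), and that of smo-miR1083 was 1.59 times that of ppt-miR1030a (0.898 to 2.96). These 3 intervals also include 2.

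The same 4 species prefixes occur on 21 other names, 10 of which had at least 20 reads. These belong to widely shared families such as miR159, miR166, miR319 and miR408. 4 of the 10 were lower, none was higher and 6 were neither, with a median log2 ratio of -0.54 and a range from -5.68 for ppt-miR408b to 0.97 for ppt-miR529e. In a list of 31 widely conserved families, 24 of 127 names with at least 20 reads were lower and 5 higher, with a median log2 ratio of -0.46. Of 37 families listed as first named in conifers, 2 were found in the table. Of 95 listed for moss 2 were found, and of 37 listed for spikemoss 1, and all 5 of these families are described here.

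Among the miRBase names of other families, the nearest ratios to that of ppt-miR894 were those of gma-miR6300, with 183 and 33 reads and a log2 ratio 0.17 away, and of ppe-miR1511-3p, with 283 and 38 reads, 0.26 away. The nearest to pab-miR3711 were hbr-miR6173, with 139 and 32 reads, 0.08 away, and gma-miR6300, 0.27 away. ppt-miR1030a lay nearest to ath-miR172a, 0.11 away, and hci-miR164a, 0.15 away. smo-miR1083 lay nearest to mtr-miR171c, 0.01 away, and to cca-miR156b with stu-miR156f-5p, which have equal counts, 0.03 away, and pta-miR1314 to ath-miR398b-3p and mes-miR166i, 0.02 and 0.05 away. This likeness is over 2 libraries, so it rests on a single ratio per name and was not tested. Many names lie close together near the median ratio, and fewer lie near the low ratios of ppt-miR894 and pab-miR3711.

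The deposited target table pairs 414 miRNA names with 2713 genes, of which 74.9% have a protein match. It gave 41 genes for 4 of the 5 names, 27 of them with a protein match. No gene was listed for more than 1 of the 5 names. Of all 2713 genes, 74.2% were listed for 1 name only. The lack of overlap between lists this short is therefore not read as a result. The number of genes differed widely among the 5 names: 20 for ppt-miR1030a, 15 for pta-miR1314, 4 for smo-miR1083 and 2 for pab-miR3711. None was listed for ppt-miR894. The median over all names with targets was 7. These are predictions from sequence, and no transcript level was measured here.

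**Figure D4:**
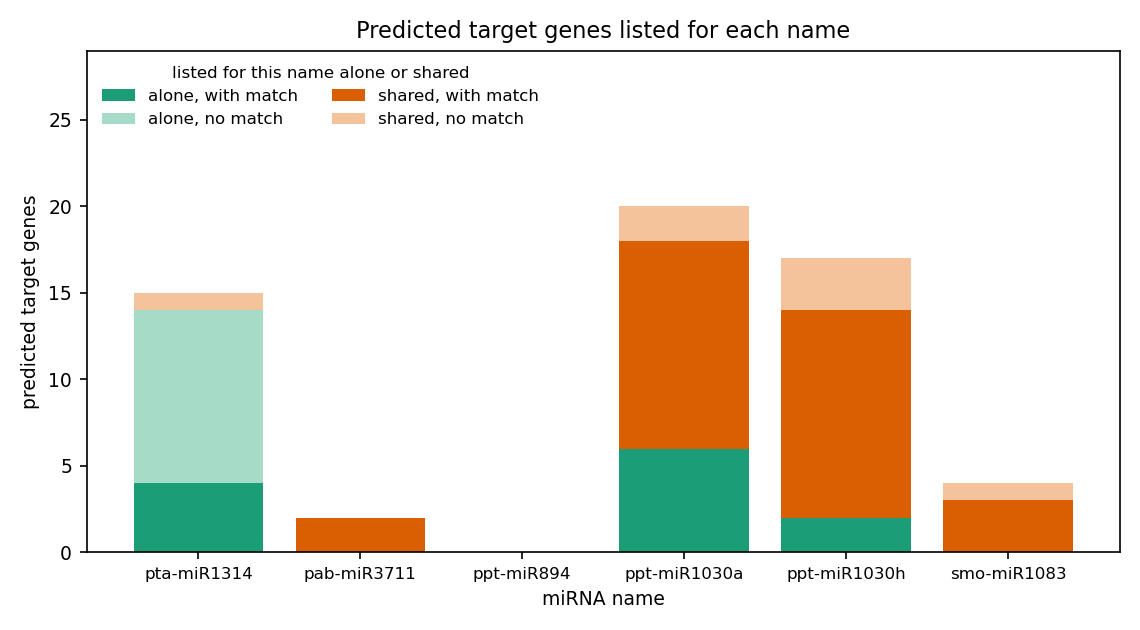
Predicted target genes of the 5 miRNAs and of ppt-miR1030h, as stacked bars of gene counts, divided by whether the gene was listed for that name alone or also for others and by whether it had a protein match. pta-miR1314 had 15 genes, 11 of them with no match, and ppt-miR1030a 20, of which 14 were shared with another name.

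The predicted targets of smo-miR1083 were few and alike. Its 3 targets with a match were all response regulators of the ARR type: Gb_10394 and Gb_15501 matched ARR2 of Arabidopsis thaliana, and Gb_27043 matched ARR1. In that plant ARR1 and ARR2 are transcription factors that switch on genes in response to the hormone cytokinin, which among other effects promotes chloroplast development and delays leaf ageing. In the authors' deposited table the E-values, which fall as a match grows less likely by chance, were 5.23e-85 for Gb_10394, 3.91e-73 for Gb_15501 and 6.53e-11 for Gb_27043. The table holds 5 genes described as two-component response regulators. The 3 of them whose match description names an ARR protein were all listed for smo-miR1083, and the other 2 were not. Only genes predicted as a target of some miRNA name are held there, so this is not a share of all ginkgo response regulators. The remaining target, Gb_35815, had no match.

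All 4 targets of smo-miR1083 were also listed for novel_15, a numbered name with 8 predicted targets in all, so they made up 50.0% of that name's list. novel_15 had 71943 green and 65754 yellow reads, 21.2 times the reads of smo-miR1083. Its ratio was 0.682 (0.675 to 0.689), which was 1.62 times that of smo-miR1083 (1.54 to 1.71), so the 2 names differed beyond counting error. Gb_15501 was listed for ath-miR396b-5p, vvi-miR396b and novel_21 as well. The reads of ath-miR396b-5p outnumbered those of smo-miR1083 25.6 times, and its ratio was 1.23 (1.22 to 1.24). novel_21, with 186 and 52 reads, was 4.79-fold lower (3.51 to 6.65). Of these names predicted to bind ARR genes, smo-miR1083 and novel_21 were called lower, and novel_15, ath-miR396b-5p and vvi-miR396b were not called in either direction, when scaled by the total.

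ppt-miR1030a had 20 predicted targets, and 38 of the 414 names had more. 18 had a protein match, a share of 90.0% against a median of 79.5% over the 156 names with at least 10 targets. By keyword, 6 were counted as transcription factors. Gb_07156 matched PIF3, a phytochrome-interacting factor that represses chlorophyll and chloroplast genes in the dark in Arabidopsis. Gb_05176 matched WRKY14, and Gb_06182 and Gb_07446 matched proteins described as the transcription factors bHLH140 and bHLH82. The other 2, named here after their values were seen, were Gb_28594, matched to the trihelix factor GT-2, and Gb_21266, matched to a bovine zinc finger HIT protein that is not a classical transcription factor. Their matches were weak in the authors' deposited table, with E-values of 4.71e-06 and 6.41e-07.

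Another 2 targets of ppt-miR1030a matched chloroplast proteins. Gb_27318 matched TAAC, the thylakoid carrier that exchanges ADP and ATP, and Gb_11573 the S10 protein of the chloroplast ribosome. Gb_25546 matched a mitochondrial calcium uniporter protein, Gb_04644 the ubiquitin ligase ATL2 and Gb_31753 an intracellular leucine-rich repeat protein. The match of Gb_31753 was weak, with an E-value of 9.43e-07 in the authors' deposited table. 7 further matched genes fell in no keyword group. They included, chosen after the list was seen, Gb_03145, matched to the large auxin transport protein BIG, Gb_19455, matched to a subunit of the gamma-tubulin complex, and Gb_27482, matched to the microtubule-bundling protein MAP65-1.

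These targets were largely shared within the family. ppt-miR1030a and ppt-miR1030h had 12 genes in common, 60.0% of the list of the first and 70.6% of that of the second. novel_132 was listed for 13 of the 20 targets of ppt-miR1030a and 14 of the 17 of ppt-miR1030h, and 11 genes, the PIF3 and TAAC matches among them, were listed for all 3 names. 6 genes were listed for ppt-miR1030a alone, among them the matches to WRKY14, bHLH82, ATL2 and BIG. novel_132 had 103 green and 50 yellow reads and was 2.76-fold lower (1.95 to 3.95). Its ratio was 1.37 times that of ppt-miR1030a (0.690 to 2.80) and did not differ from it beyond counting error. The ratio of ppt-miR1030h was 1.41 times that of ppt-miR1030a (0.372 to 4.87). Whether the names that share targets, here and for the other miRNAs, have nearly the same sequence or count some of the same reads was not tested, and the intervals between them take their reads as separate.

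**Figure D5:**
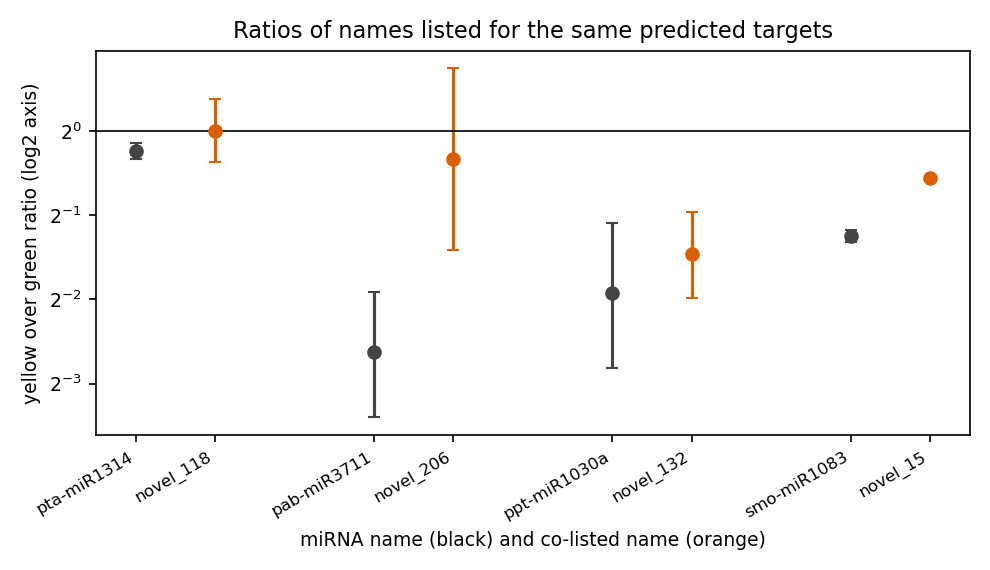
Ratio of yellow over green (log2 axis, scaled to the column total) of 4 miRNAs (black) and of the numbered name that shares more of their predicted targets than any other name does (orange; 1 of 15 for pta-miR1314), with exact 95% counting intervals. ppt-miR1030a and novel_132 overlap, while novel_15 lies above smo-miR1083 and novel_206 above pab-miR3711.

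pta-miR1314 had a list of another kind. 11 of its 15 targets had no protein match, and the share with a match, 26.7%, was the lowest among the 156 names with at least 10 targets. 14 of the 15 genes were listed for no other name, as were 74.2% of all genes of the table. The remaining gene, Gb_36605, was shared with novel_118 and had no match. The 4 matched genes were Gb_10265 (solanesyl diphosphate synthase 3, which makes the side chain of ubiquinone in Arabidopsis), Gb_30033 (a flavin-containing monooxygenase of the GS-OX type), Gb_39527 (methylmalonate-semialdehyde dehydrogenase of mitochondria) and Gb_12939 (a leucine-rich repeat receptor-like kinase). In the authors' deposited table the E-value of Gb_30033 was 9.74e-75, and that of Gb_12939, the weakest of the 4, was 8.54e-06. novel_118 was read 108 times in green and 145 times in yellow leaves, a ratio of 1.002 (0.776 to 1.30), 1.18 times that of pta-miR1314 (0.907 to 1.55), so these names did not differ beyond counting error.

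pab-miR3711 had 2 predicted targets, Gb_13849 and Gb_31157, and both matched the Gag-Pol polyprotein of the yeast retrotransposon Ty3. Genes described as transposon or retrovirus proteins were 213 in the table, or 7.85% of its genes. Such genes were listed for 26 numbered and 12 miRBase names. Both targets were shared with novel_206, whose 12 predicted targets were all of this kind. novel_206 had 16 green and 17 yellow reads and a ratio of 0.793 (0.377 to 1.68). The ratio of novel_206 was 4.82 times that of pab-miR3711 (1.94 to 12.2), so the names with shared targets differed beyond counting error.

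ppt-miR894, the most-read of the 5 in green leaves, was listed for no gene. The labels and files do not say whether the name was entered into the prediction, so the absence may not mean that no site was found. The same absence holds for 38 of the 306 names with at least 20 reads. Of the 54 names with no listed target, 4 had more reads than the 10305 of ppt-miR894, and these 4 were numbered names, so ppt-miR894 was the most-read miRBase name without a listed target. No listed gene can therefore be set beside its 8.34-fold lower level.

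None of the 27 matched target genes fell in the keyword group of pigment and specialised metabolism enzymes, a group that held 34 genes, or 1.67% of the matched genes of the table, so its absence from a list this short is not read as a result. The transcription factor keywords found 6 of the 27, or 22.2%, all of them targets of ppt-miR1030a, and 7.68% of the matched genes of the whole table. These 6 include the zinc finger HIT match, and the keywords do not find the 3 ARR matches of smo-miR1083. Kinases and phosphatases were 1 of 27 and 11.0% of the table, and leucine-rich repeat and immune receptors 2 of 27 and 11.9%. Those 2 receptor matches, Gb_12939 and Gb_31753, were weak, with E-values of 8.54e-06 and 9.43e-07 in the authors' deposited table. The shares of the keyword groups describe the lists and were not tested.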

How the data were processed

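The authors deposited a count table, which per the file headers gives raw read counts per miRNA name in 1 column per library, and a table of predicted target genes that gives miRNA names and the best protein match with its E-value. Bowtie is named in the submitters' processing notes. Its version, the miRBase release, the counting rule and the target predictor were not given in the sources used here, and miRNA sequences were not used here. A read may count under several names. Counts were scaled to the column total. The interval of a ratio is the exact Clopper-Pearson interval of the yellow share of a name's reads, and 2 names were compared by the exact conditional odds ratio (SciPy 1.17.1). Without molecular identifiers, reads need not be separate molecules, and intervals cover counting error only. Other scalings were edgeR 4.0.16 TMM, DESeq2 1.42.0 median of ratios, the total without novel_1 and the total over miRBase names. The median of ratios gave a size of 1 for both libraries, so its ratios are those of the raw counts. No model was fitted and no p-value computed. The intervals and the rule of size were also run on counts simulated with counting error only. That run held no spread between libraries and no error of scaling, so it cannot speak to either. Named were the 5 miRNAs, the 2 miRBase names of other families nearest in log2 ratio, up to 3 names by number of shared targets, and the matched targets (up to 4 per keyword group where a miRNA had more than 15). The 9 keyword groups searched the match description at the start of a word. Members, lists and rules were chosen with earlier results of these data known.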

Additional observations from a re-analysis of the deposited data

How the results depend on the processing

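Scaled by TMM, median of ratios, the total without novel_1 and the total over miRBase names, in that order, the ratio of pta-miR1314 was 1.17, 1.14, 1.02 and 0.935, that of ppt-miR894 0.166, 0.161, 0.144 and 0.132, and that of smo-miR1083 0.583, 0.565, 0.506 and 0.465. The ratios of pab-miR3711 and ppt-miR1030a moved by less than their counting intervals. The number of the 5 names called lower was 3 under the first 3 of these scalings, without smo-miR1083, and 4 over miRBase names, with a 1.5-fold limit, with no minimum or a minimum of 10 reads, and with equal counts taken once. The number called higher was 0 under each of these settings. The split of all names between lower and higher was 76 and 37 by the column total and 50 and 64 with TMM. The summed share of the 5 names was 0.933% in green and 0.323% in yellow leaves without novel_1, and 2.04% and 0.648% over miRBase names. The 10 ratios between names differed little between the conditional and the sample odds ratio. With a protein match required, pta-miR1314 had 4 target genes in place of 15. Counting genes listed for no other name, pab-miR3711 had 0 in place of 2, smo-miR1083 0 in place of 4 and ppt-miR1030a 6 in place of 20. No paired analysis was possible because each leaf type has 1 library. Depth limited pab-miR3711 and ppt-miR1030a, with 20 and 17 reads in yellow leaves.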
